A study of Mus musculus with 6 samples.

Results

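The mitochondrially encoded genes are the 37 genes of the mouse mitochondrial genome, chosen as all rows of the count table whose symbol starts with mt-, out of 56980 gene IDs. They comprise 13 mRNAs, 2 rRNAs and 22 tRNAs, and 15 of the tRNA genes had no count in any library. RNA came from whole pancreatic islets, the endocrine cell clusters of the pancreas, of 14-week-old mice. The 3 control libraries (control 1 to 3) came from SSBP3F/F mice, in which both alleles of the co-regulator gene Ssbp3 are floxed. The 3 knockout libraries (knockout 1 to 3) came from littermates of genotype SSBP3F/F; MIP-CreER, which carry the same floxed alleles and a tamoxifen-inducible Cre recombinase driven by the mouse insulin promoter. No group with MIP-CreER and unfloxed Ssbp3 was analysed here, and effects of the transgene cannot be told apart from those of the deletion. The sources used here do not say whether a library holds 1 animal or a pool. The p-values therefore rest on the variation among 6 libraries, some of which may be technical.

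Mitochondrial DNA is a small circle present in many copies per cell. Mitochondrial RNA polymerase reads it from a heavy-strand and a light-strand promoter into long transcripts that run through many genes. The tRNAs lie between most mRNAs and rRNAs, and cutting them out frees the RNAs on either side. The rRNAs form the core of the mitochondrial ribosome, and all the mRNAs encode subunits of respiratory complexes I, III and IV and of ATP synthase. In beta cells these complexes make the ATP whose rise with glucose triggers insulin release. Of the 37 genes, 28 (12 of them mRNAs) are read from the heavy-strand promoter and 9 (mt-Nd6 and 8 tRNAs) from the light-strand promoter.

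Library totals ranged from 14907641 to 225428920 counts, and control 1 and knockout 1 were the shallow libraries of their groups. The targeted gene Ssbp3 measured 65.8, 81.3 and 74.2 CPM (counts scaled to library size) in the controls and 52.2, 58.1 and 57.1 CPM in the knockouts (edgeR adjusted p = 0.0581). Islet hormone transcripts were abundant in every library. Ins2 measured 115582, 134541 and 157761 CPM in the controls and 95634, 87045 and 101285 CPM in the knockouts, without overlap (edgeR adjusted p = 0.234). Ins1 too was lower in every knockout than in every control (edgeR adjusted p = 0.109). All 28 acinar markers matched were detected. Their summed level was 36760 to 72881 CPM in controls and 28264 to 96655 CPM in knockouts, so the groups overlapped. Of 20 endocrine markers, 4 fell and 2 rose by edgeR, against 3.35% of all genes tested lower and 3.72% higher. Their summed level was 236591 to 285322 CPM in controls and 193041 to 217848 CPM in knockouts, without overlap. Such a sum follows its most abundant genes, and Ins2 alone measured 115582 to 157761 CPM in controls and 87045 to 101285 CPM in knockouts. Taken singly, 28.0% of all genes tested did not overlap between the groups. Of 18 duct, endothelial, stromal and immune markers tested, 2 rose and 0 fell by edgeR (0 lower at an unadjusted p under 0.05, 0 by DESeq2 and 0 by limma-voom). Their summed level ran from 444 to 603 CPM in controls and from 443 to 623 CPM in knockouts. The part of these cell types in the results below was not tested, and in whole islets fewer cells of a type and less RNA per cell cannot be told apart.

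Several mitochondrial genes have copies in nuclear DNA, and the count table listed the copies at nearly the same values. Aligning the transcripts of the GENCODE M21 annotation (GRCm38) to the mitochondrial ones found 7 nuclear genes with at least 99% identity over at least 200 bases. Gm28437 copies mt-Co3, Gm10925 copies mt-Atp6, Gm28661 copies mt-Co2, Gm28438 copies mt-Nd3 and Gm10222 copies mt-Nd4l, each nearly whole, while Gm29216 and Gm28439 copy parts of mt-Co1 and mt-Nd4. The counts of 4 of the 5 nearly whole copies lay between 99.2% and 101% of those of the mitochondrial gene in every library. For Gm28438 and mt-Nd3 they were 10845 and 10869 in control 1, and 29529 and 29621 in knockout 3. Gm10925 held 124% to 128% of the mt-Atp6 count. These 7 copies took a further 0.725% to 1.11% of all counts in a library. The other 10 nuclear copies, under 99% identity, held at most 1.49% of the count of their mitochondrial gene. Of these Gm13339, Gm13340 and Gm13341 passed the filter on low counts, and none was called (edgeR adjusted p 0.363, 0.956 and 0.989).

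The sequences show how little separates a gene from its copy. In the aligned stretch mt-Nd3 and Gm28438 differ by a single substitution, T3C, counted from the first base of the mt-Nd3 transcript, with the mt-Nd3 base first. The first 33 bases are given 5′ to 3′, with the differing base in capitals.
mt-Nd3: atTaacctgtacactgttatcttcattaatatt
Gm28438: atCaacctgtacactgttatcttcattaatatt
The sources used here do not say how reads with several alignments were counted. Reads of a mitochondrial gene and of its near-identical copy cannot be told apart in this table. None of the 7 copies was called, with edgeR adjusted p between 0.152 and 0.913. The mt-Rnr1, mt-Rnr2, mt-Nd1, mt-Nd2, mt-Atp8, mt-Nd5, mt-Nd6 and mt-Cytb rows, 8 of the 15 rRNAs and mRNAs, had no annotated nuclear copy of this kind. Leaving the 7 copies out of the table, an alternative added after seeing the data, changed no call of a member.

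Both rRNAs and 1 mRNA were lower in knockout islets by the test over all genes. Genes were tested with edgeR's quasi-likelihood test, and a gene is called when its Benjamini-Hochberg adjusted p over all 18558 genes tested is under 0.05. Over all genes 7.07% were called, 3.72% higher and 3.35% lower. Of the 18 members that passed the filter on low counts, 3 fell (both rRNAs and mt-Nd2) and 0 rose (0 higher at an unadjusted p under 0.05, 0 by DESeq2 and 0 by limma-voom). These calls depend on which libraries enter: 1 member was called without control 1, 1 without knockout 3, 0 without knockout 1 and 0 without both shallow libraries. The groups did not overlap for 5 of the 18 members, all of them lower in the knockouts. Over all genes tested, 14.1% were lower without overlap, and 28.0% did not overlap in either direction. The log2 fold changes (knockout over control) of the 13 mRNAs had a median of -0.23, against -0.0016 over all genes tested. With single libraries left out it ran from -0.36 without control 2 to -0.13 without control 3. That median was 0.08 when offsets for transcript length and GC content were used, so its direction depended on that choice. The mitochondrial rRNAs and mRNAs have a median GC content of 36.0%, against 49.7% for the genes tested, and a median length of 955 bases, against 2970 for the longest transcripts of the genes tested.

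**Figure D1:**
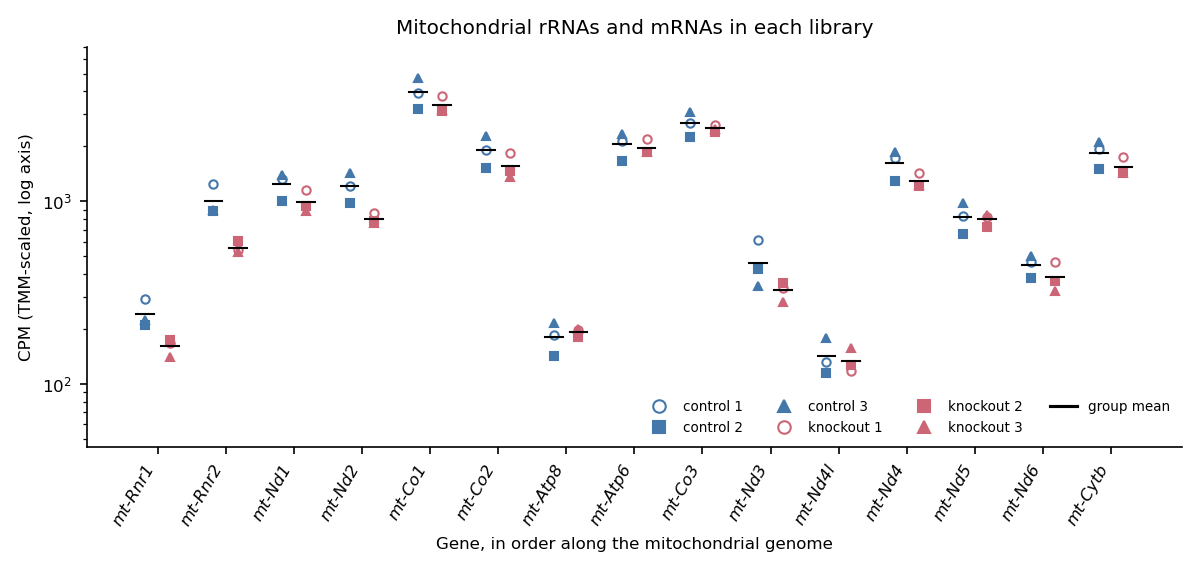
Level of each mitochondrial rRNA and mRNA (CPM, log axis) in the 3 control and 3 knockout libraries, with genes in their order along the mitochondrial genome and black bars at the group means. Only mt-Rnr1, mt-Rnr2 and mt-Nd2 show every knockout library below every control library.

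The share of counts from mitochondrial transcripts as a whole overlapped between the groups. All members together took 2.08%, 1.46% and 2.22% of the counts in control 1, 2 and 3, and 1.90%, 1.51% and 1.76% in knockout 1, 2 and 3. Control 2 was the lowest of all and the groups overlapped (two-sided exact permutation p = 0.5). The mRNAs made up most of this, with 1.80% ± 0.389 in controls and 1.65% ± 0.195 in knockouts (SD, n = 3; exact permutation p = 0.6). Without control 3 the difference for the mRNAs, otherwise -0.15 percentage points, was 0.0033. For all members together the difference was -0.20 percentage points. It was -0.37 with acinar and insulin genes left out of the library total, again with overlap (exact permutation p = 0.3).

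The rRNAs took 0.154%, 0.0989% and 0.1101% of the counts in control 1, 2 and 3, and 0.0734%, 0.0748% and 0.0749% in knockout 1, 2 and 3. All knockout libraries were below all controls, and control 1 was the highest of the 6. The exact permutation p of 0.1 is the smallest that 3 against 3 libraries can give. Relative to the mRNAs of the same library, there were 7.997, 7.25 and 5.22 rRNA counts per 100 mRNA counts in control 1, 2 and 3. In knockout 1, 2 and 3 there were 4.02, 5.20 and 4.46. On the log2 scale the ratio differed by -0.57 (exact permutation p = 0.1), and -0.35 without both shallow libraries. The lowest control, 5.22, was close to the highest knockout, 5.20. This ratio compares RNAs within the mitochondrial genome and does not depend on how libraries are scaled. The sources used here do not say whether polyadenylated RNA was selected or rRNA removed, and the part of that step in the rRNA levels was not tested.

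**Figure D2:**
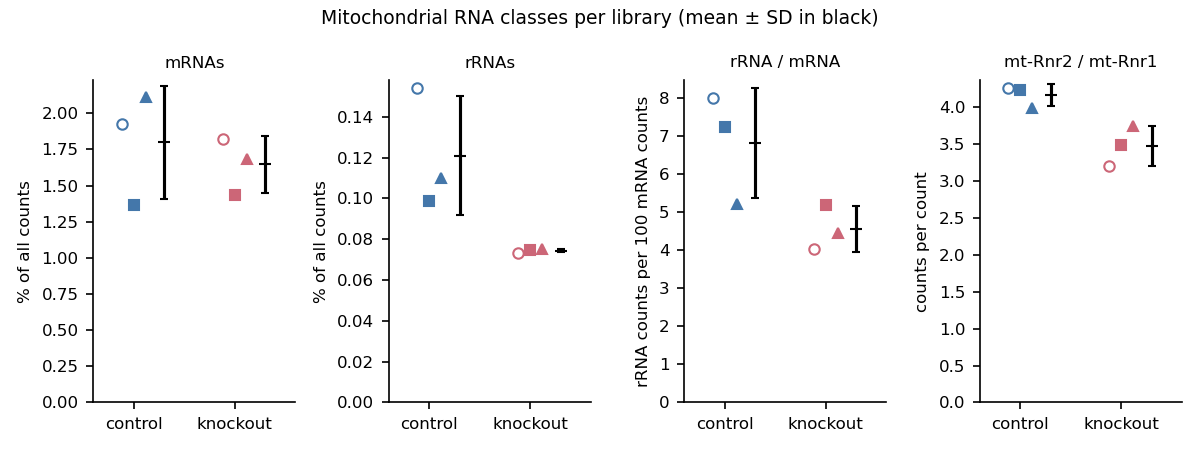
Share of all counts (percent) of mitochondrial mRNAs and of rRNAs, rRNA counts per 100 mRNA counts, and mt-Rnr2 counts per mt-Rnr1 count, with 1 point per library and the mean ± SD of each group in black. The mRNA shares overlap between the groups, while the other 3 panels show all knockout libraries below all controls.

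The large-subunit rRNA gene mt-Rnr2 (ENSMUSG00000064339) had the largest decrease among the rRNAs and mRNAs. It measured 1238, 886 and 895 CPM (control 1, 2 and 3) against 539, 606 and 526 CPM (knockout 1, 2 and 3). The knockout libraries lay close together and well below the lowest control. The log2 fold change was -0.85 (SE 0.157, edgeR adjusted p = 0.00694), or 1.81-fold lower. The call was kept with length and GC offsets (log2 fold change -0.52, adjusted p = 0.0262) and lost without knockout 1 (adjusted p = 0.0502) or without both shallow libraries (0.158). The lowest adjusted p among 18 alternatives was 2.90e-07 and the highest 0.158.

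The small-subunit rRNA gene mt-Rnr1 (ENSMUSG00000064337) fell less. It measured 290.5, 209 and 224 CPM (control 1, 2 and 3) against 168, 174 and 141 CPM (knockout 1, 2 and 3). Here too every knockout was below every control (log2 fold change -0.58, SE 0.143, edgeR adjusted p = 0.0284). The adjusted p was 0.112, 0.0838 and 0.0609 when control 1, knockout 1 and knockout 3 were left out in turn, and the call was also lost in the fit on the 4 deep libraries (0.216) and with length and GC offsets (log2 fold change -0.23, adjusted p = 0.301; range 0.000824 to 0.301 over 18 alternatives). The 2 rRNAs are neighbours on the heavy strand, separated only by the tRNA gene mt-Tv. Their ratio, examined after the values had been seen, was 4.26, 4.24 and 3.99 mt-Rnr2 counts per mt-Rnr1 count in control 1, 2 and 3, and 3.203, 3.48 and 3.74 in knockout 1, 2 and 3. The groups did not overlap (exact permutation p = 0.1), with knockout 3 nearest the controls.

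Complex I, which takes electrons from NADH, holds the products of 7 of the mRNAs. Of these only mt-Nd2 (ENSMUSG00000064345) was called. It measured 1219, 978 and 1420 CPM (control 1, 2 and 3) against 862, 776 and 764 CPM (knockout 1, 2 and 3). All knockouts were below all controls (log2 fold change -0.59, SE 0.157, edgeR adjusted p = 0.0398). The call was lost without any of control 1, control 3, knockout 1, knockout 2 or knockout 3 (adjusted p 0.118, 0.0994, 0.0989, 0.126 and 0.0779), in the fit on the 4 deep libraries (0.233) and with length and GC offsets (log2 fold change -0.25, adjusted p = 0.388; range 0.00138 to 0.388 over 18 alternatives).

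The mt-Nd3 mRNA, another complex I subunit, was the least even across the controls. It measured 613, 425 and 343 CPM (control 1, 2 and 3) against 337, 358 and 281 CPM (knockout 1, 2 and 3). Control 1 stood far above the rest, and control 3 fell within the knockout range. The gene was not called (log2 fold change -0.50, SE 0.191, edgeR adjusted p = 0.147), but it was called lower without control 3 (0.0273) and without a filter on low counts (0.00854). Without control 1 its log2 fold change was -0.24 (adjusted p = 0.464). With length and GC offsets its log2 fold change was 0.08 (range of adjusted p 0.00854 to 0.822 over 18 alternatives).

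Of the other complex I mRNAs, mt-Nd1 and mt-Nd4 had log2 fold changes of -0.32 and -0.33 (edgeR adjusted p 0.283 and 0.271). Those of mt-Nd6, mt-Nd4l and mt-Nd5 were -0.23, -0.08 and -0.05 (adjusted p 0.444, 0.834 and 0.896). None of these 5 was called in any of 18 alternatives, and the values of mt-Nd6, mt-Nd4l and mt-Nd5 were positive with length and GC offsets (0.25, 0.20 and 0.19). With the same offsets mt-Nd1 and mt-Nd4 had -0.05 and -0.01. In both groups, mt-Nd1 measured between 886 and 1393 CPM and mt-Nd4 between 1217 and 1861 CPM.

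The remaining mRNAs belong to complexes III and IV and to ATP synthase, and none was called by the test described above. The cytochrome b mRNA mt-Cytb, of complex III, gave -0.26 as its log2 fold change (edgeR adjusted p = 0.410), with -0.14 without control 3 and -0.05 with length and GC offsets. The mRNAs of the catalytic core of cytochrome c oxidase, mt-Co1, mt-Co2 and mt-Co3, had log2 fold changes of -0.23, -0.29 and -0.09 (adjusted p 0.514, 0.403 and 0.797). Without control 3 these were -0.07, -0.13 and 0.03, and with length and GC offsets -0.07, -0.02 and 0.16. For ATP synthase, mt-Atp6, part of the proton channel, had -0.06 (adjusted p = 0.874), with 0.06 without control 3 and 0.31 with length and GC offsets.

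The short mRNA mt-Atp8, for a small subunit of ATP synthase, was the only mRNA with a positive log2 fold change. It measured 186, 143 and 215 CPM (control 1, 2 and 3) against 197, 180 and 201 CPM (knockout 1, 2 and 3). The knockout libraries all lay inside the control range (log2 fold change 0.09, SE 0.144, edgeR adjusted p = 0.789). With length and GC offsets it was called higher (log2 fold change 0.75, adjusted p = 0.0153), and without control 2 the log2 fold change was -0.05 (range of adjusted p 0.0153 to 0.913 over 18 alternatives).

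**Figure D3:**
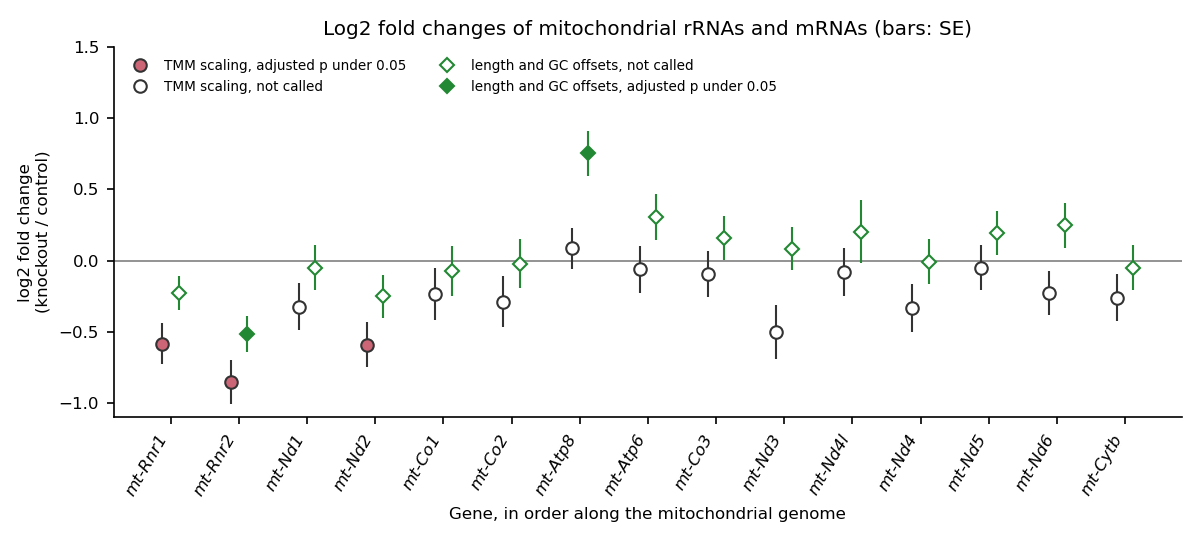
Log2 fold changes (knockout over control, bars are SE) of the 15 rRNAs and mRNAs in genome order, with TMM scaling (circles) and with length and GC offsets (diamonds), filled where the adjusted p is under 0.05. With offsets every value moves up, the call of mt-Rnr2 stays, those of mt-Rnr1 and mt-Nd2 end, and mt-Atp8 is called higher at 0.75.

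Per kilobase of gene, the levels in control islets ran in the order mt-Co3, mt-Atp6, mt-Co2 and mt-Co1 at the top. The highest was 3408 ± 526 CPM per kilobase for mt-Co3, and mt-Co1 measured 2557 ± 505 (SD, n = 3). Within these 4, neighbours in the order differed by less than the SD between controls, although all 3 control libraries gave the same order. The place of mt-Atp6 is uncertain, since its nearly whole copy Gm10925 held 124% to 128% of its count. The mt-Cytb mRNA followed at 1616 ± 275 CPM per kilobase, then mt-Nd3, mt-Nd1, mt-Nd4 and mt-Nd2 between 1162 and 1323. The lowest mRNAs were mt-Nd4l at 476 ± 112 and mt-Nd5 at 452 ± 88.1 CPM per kilobase. The rRNAs measured 636 ± 127 for mt-Rnr2 and 253 ± 45.2 for mt-Rnr1, below most of the mRNAs. In knockout islets mt-Co3 was again highest at 3195 ± 142 CPM per kilobase, and mt-Rnr1 was lowest of the rRNAs and mRNAs at 169 ± 18.7.

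A few mRNAs share bases on the mitochondrial genome, which affects how reads can be assigned to them. The end of mt-Atp8 and the start of mt-Atp6 share 43 bases on 1 bicistronic mRNA, and the end of mt-Nd4l and the start of mt-Nd4 share 7. The stretches are given 5′ to 3′ from the GENCODE M21 transcripts, since they explain why these neighbours cannot be counted independently. In the mt-Atp8 and mt-Atp6 stretch, capitals mark the start codon of mt-Atp6 and the stop codon of mt-Atp8. In the stretch of 47 bases around the overlap of mt-Nd4l and mt-Nd4, capitals mark the 7 shared bases.
mt-Atp8 and mt-Atp6: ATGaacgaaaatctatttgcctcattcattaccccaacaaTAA
mt-Nd4l and mt-Nd4: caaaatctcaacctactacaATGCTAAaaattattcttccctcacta
How reads over 2 genes were counted is not stated. Gm10925 held 124% to 128% of the mt-Atp6 count, against 99.2% to 101% for the other nearly whole copies. The part of the overlap with mt-Atp8 in this was not tested, and the mt-Atp6 row may miss reads. The mt-Nd5 and mt-Nd6 genes lie on opposite strands and overlap by 14 bases.

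Within the mitochondrial mRNAs, the balance of messages was compared next. Each mRNA was taken as a percentage of the summed mRNA counts of its library, a measure that does not depend on scaling between libraries. The groups did not overlap for 6 of the 13 shares (on the CPM scale, 28.0% of all genes tested did not overlap). These were 2 lower in knockout islets, mt-Nd2 and mt-Nd4, and 4 higher, mt-Atp8, mt-Atp6, mt-Co3 and mt-Nd5. Each of the 6 had an exact permutation p of 0.1, the smallest possible, and 0.217 after Benjamini-Hochberg adjustment over the 13 shares. Shares of a sum are not independent, since a lower share of one mRNA raises the others.

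The share of mt-Nd2 was 6.38%, 6.48% and 6.62% in control 1, 2 and 3 and 4.91%, 5.17% and 5.11% in knockout 1, 2 and 3. That is a change of -22.0% relative to the control mean, with a gap between the groups several times the spread within them. The share of mt-Atp6 was 11.16%, 11.06% and 10.96% in control 1, 2 and 3 and 12.43%, 12.37% and 12.37% in knockout 1, 2 and 3. The mt-Atp6 values were thus nearly constant within each group and 12.1% higher in the knockouts. Its overlapping neighbour mt-Atp8 took 0.973% ± 0.0290 in controls and 1.22% ± 0.112 in knockouts (SD, n = 3). The share of mt-Nd5 was 4.43% ± 0.119 in controls and 5.04% ± 0.501 in knockouts, that of mt-Co3 14.4% ± 0.394 and 15.9% ± 0.879, and that of mt-Nd4 8.75% ± 0.257 and 8.14% ± 0.0331.

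The remaining 7 shares overlapped between the groups. The mRNA with the most counts, mt-Co1, took 21.2% ± 0.797 in controls and 21.2% ± 0.368 in knockouts. The share of mt-Nd3 ranged widely among controls, from 1.599% in control 3 to 3.21% in control 1, and was 1.92%, 2.39% and 1.88% in knockout 1, 2 and 3. Without knockout 1, or without both shallow libraries, 10 of the 13 shares did not overlap. Groups of fewer libraries separate more easily, and the share over all genes was not computed for these subsets.

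**Figure D4:**
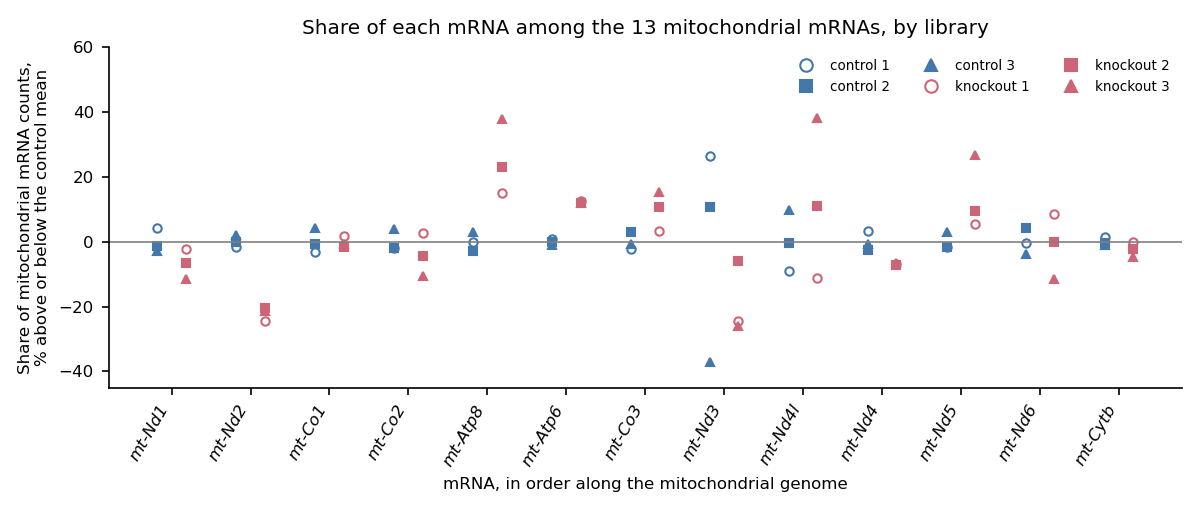
Share of each mitochondrial mRNA among the 13, as percent above or below the control mean, with 1 point per library. The knockout points of mt-Nd2 centre on -22.0% and those of mt-Atp6 on 12.1%, both with little spread, while the controls of mt-Nd3 spread most.

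The partial copies gave a view inside 2 of the genes, examined after the values had been seen. Gm29216 copies 483 bases at the 3′ end of mt-Co1. Its count was 30.9%, 32.4% and 31.3% of the mt-Co1 count in control 1, 2 and 3, and 29.5%, 28.0% and 25.2% in knockout 1, 2 and 3. All knockouts were below all controls (exact permutation p = 0.1). Gm28439 copies 876 bases at the 5′ end of mt-Nd4. Its count was 48.9%, 47.4% and 47.8% of the mt-Nd4 count in control 1, 2 and 3, and 47.9%, 49.9% and 55.3% in knockout 1, 2 and 3. Knockout 3 stood highest and the groups overlapped (exact permutation p = 0.2). Reads at the edges of a copy can be assigned otherwise than those of the gene, so these shares are not a direct measure of coverage.

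The light-strand mRNA mt-Nd6 was set against the heavy-strand mRNAs of the same library. There were 2.48, 2.59 and 2.40 mt-Nd6 counts per 100 counts of the other 12 mRNAs in control 1, 2 and 3, and 2.71, 2.49 and 2.20 in knockout 1, 2 and 3. The knockouts spread more widely than the controls and enclosed them (log2 difference -0.02, exact permutation p = 1). The sign turned without control 2 (0.01) or without knockout 3 (0.06). The strand setting of the counting is not stated either, so mt-Nd6 reads cannot be told apart from heavy-strand transcripts running through the same bases.

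Most mitochondrial tRNAs were not measured by these libraries. Of the 22 genes, 59 to 75 bases long, 15 had no count in any library and 4 had 1 to 3 counts in all. A count of 3 was worth between 0.0135 and 0.194 CPM, depending on library depth, a floor that covers counting error only. Only mt-Tp, mt-Tn and mt-Tc passed the filter. Their genes are given 5′ to 3′ from the GENCODE M21 transcripts because they are the tRNA genes that could be tested, with the anticodon in capitals.
mt-Tp: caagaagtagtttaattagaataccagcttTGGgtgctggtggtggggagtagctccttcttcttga
mt-Tn: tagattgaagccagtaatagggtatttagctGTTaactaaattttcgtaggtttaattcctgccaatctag
mt-Tc: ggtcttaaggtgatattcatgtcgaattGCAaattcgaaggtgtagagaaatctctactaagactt
All 3, for proline, asparagine and cysteine, are read from the light-strand promoter. As for mt-Nd6, the strand setting is not stated, so their reads cannot be told apart from heavy-strand transcripts through the same bases. Between mt-Tn and mt-Tc lie 32 unannotated bases, where light-strand replication starts, and mt-Tp borders the noncoding control region. On sides facing another gene, the tRNA genes with 0 to 3 counts had at most 5 unannotated bases. The phenylalanine tRNA gene mt-Tf, at the other end of the control region, had 2 counts in all.

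The proline tRNA mt-Tp measured 4.06, 3.19 and 4.51 CPM (control 1, 2 and 3) against 3.17, 3.43 and 2.64 CPM (knockout 1, 2 and 3), with overlap (log2 fold change -0.35, edgeR adjusted p = 0.511). With length and GC offsets its log2 fold change was 0.02. The counts of mt-Tn were 15, 24 and 94 in control 1, 2 and 3 and 2, 16 and 20 in knockout 1, 2 and 3. Those of mt-Tc were 8, 30 and 76 and 2, 21 and 13. On the CPM scale both had every knockout below every control, but at this depth neither was called (in log2, -1.48 and -1.11, with edgeR adjusted p 0.307 and 0.464). None of the 3 had an unadjusted p under 0.05 by edgeR, DESeq2 or limma-voom.

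The nuclear-encoded partners of these subunits were then examined. Of 70 nuclear subunits of complexes I, III, IV and ATP synthase tested, 34 fell and 0 rose by edgeR (0 higher at an unadjusted p under 0.05, 0 by DESeq2 and 0 by limma-voom), against 3.35% of all genes lower. All 70 had a negative log2 fold change, with a median of -0.47. Removing single libraries lowered the count to 9 without control 1, 11 without control 2, and 17, 19 and 17 without knockout 1, 2 and 3. Without both shallow libraries 1 was called, with a median of -0.49. In the fit with length and GC offsets 27 fell, with a median of -0.35, where the 13 mitochondrial mRNAs had a median of 0.08. The nuclear list was compiled with earlier results of these data known, and the difference between the lists was not tested.

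Complex by complex, the medians of the log2 fold changes of the mitochondrial and the nuclear subunits were as follows. For complex I they were -0.32 for 7 mitochondrial and -0.44 for 36 nuclear subunits, of which 1 and 13 fell. The nuclear subunit gene Ndufc2 measured 134 ± 9.47 CPM in controls and 79.6 ± 7.24 in knockouts, and Ndufb3 65.0 ± 10.5 and 40.7 ± 6.01 (edgeR adjusted p 0.00233 and 0.0164). For complex III the values were -0.26 for mt-Cytb and -0.55 for 9 nuclear subunits, of which 6 fell, Uqcrb and Uqcr11 among them (by -0.83 and -0.79 in log2, with edgeR adjusted p 0.00202 and 0.00284).

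For complex IV the median was -0.23 for 3 mitochondrial and -0.50 for 11 nuclear subunits, of which 7 fell. Cox6c and Ndufa4 fell among them (log2 fold changes -0.83 and -0.66, edgeR adjusted p 0.00235 and 0.00921). For ATP synthase the median was 0.01 for mt-Atp6 and mt-Atp8 and -0.48 for 14 nuclear subunits, of which 8 fell. Atp5g1, a gene for the rotating c-ring, fell (186 ± 14.9 CPM in controls, 97.2 ± 8.92 in knockouts, log2 fold change -0.93, SE 0.118, edgeR adjusted p = 0.000659), a call held in all 18 alternatives (adjusted p 1.02e-09 to 0.0498). Atp5k fell by 0.83 on the log2 scale (adjusted p = 0.00424). The calls of Ndufc2, Uqcrb, Uqcr11, Cox6c, Ndufa4 and Atp5k were lost only without both shallow libraries (adjusted p 0.0694 to 0.128). That of Ndufb3 was lost there (0.118) and without control 1 (0.0761). Complex II, which has no mitochondrially encoded subunit, had 1 of 4 genes lower, Sdhc (log2 fold change -0.48, adjusted p = 0.0178), not called without control 1, control 2 or knockout 2 (0.0623, 0.0693 and 0.0758) and without both shallow libraries (0.137).

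**Figure D5:**
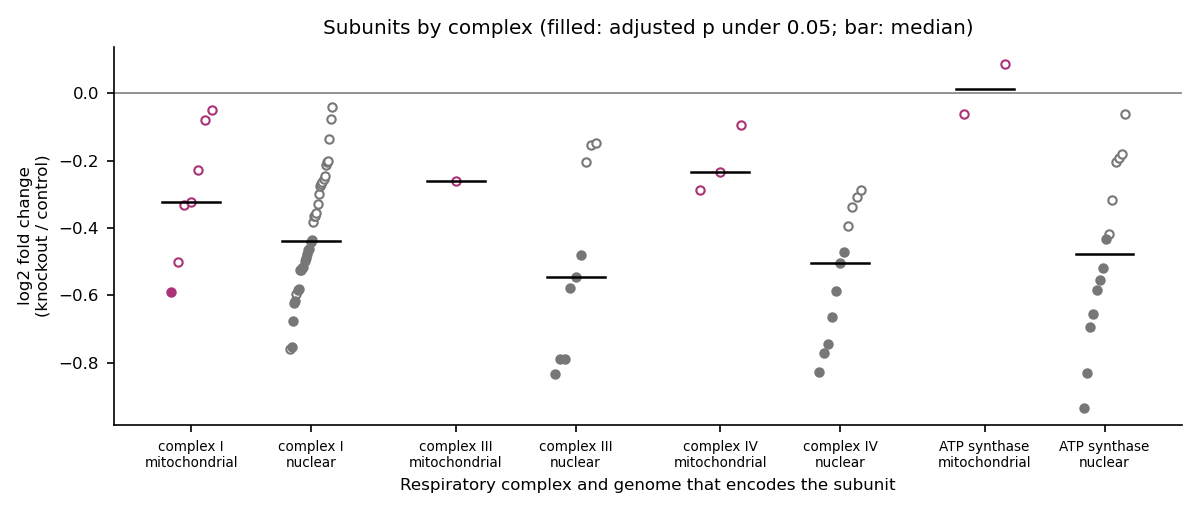
Log2 fold changes (knockout over control) of mitochondrially and nuclear-encoded subunits by complex, filled where the adjusted p is under 0.05, with a bar at the median. The nuclear medians lie between -0.55 and -0.44, and the mitochondrial ones between -0.32 and 0.01.

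Other nuclear genes copy, transcribe, process and translate the mitochondrial genome. Over 8 lists of such genes, also compiled with earlier results known, 7 of 134 genes tested fell and 0 rose by edgeR, a share near the 3.35% of all genes that were called lower. At an unadjusted p under 0.05 by edgeR, 22 were lower and 5 higher, where 21.6% of all genes passed in either direction. DESeq2 called 10 lower and 2 higher, and limma-voom 10 lower and 1 higher. Of the 134 genes, 96 had a negative log2 fold change. The median log2 fold change was -0.13. The 7 lower genes became 2 without control 1, 1 without control 2, 1 without knockout 1, 4 without knockout 2 and 0 without both shallow libraries.

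Of 11 genes for transcription and packaging of mitochondrial DNA, only Mterf3, which represses mitochondrial transcription, fell (19.6 ± 0.621 CPM in controls, 12.6 ± 1.03 in knockouts, log2 fold change -0.64, edgeR adjusted p = 0.0213). It lost the call when any library but knockout 3 was left out (0.0532 to 0.0830). The median of this list was -0.35. Of its 11 genes, 10 had a negative log2 fold change, and 5 were lower at an unadjusted p under 0.05 by edgeR. Among genes outside the naming rule, picked for their central roles after their values were seen, the packaging factor gene Tfam had a log2 fold change of 0.02 and the polymerase gene Polrmt of -0.16 (edgeR adjusted p 0.943 and 0.572).

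Of 20 genes for replication and upkeep of mitochondrial DNA, only Ssbp1 fell. It encodes the single-stranded DNA-binding protein of mitochondria and belongs to another family than Ssbp3. It measured 28.0 ± 3.12 CPM in controls and 19.1 ± 1.88 CPM in knockouts (log2 fold change -0.56, edgeR adjusted p = 0.0363), and it lost the call without any single library (0.0520 to 0.192). The helicase gene Twnk, picked after its value was seen, was not called (log2 fold change 0.61, adjusted p = 0.0791). In this list 13 of the 20 genes had a negative log2 fold change, with a median of -0.16.

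Of 19 genes for cutting, tailing and turnover of mitochondrial RNA, 2 fell. Fastk, whose mitochondrial isoform is needed for the mt-Nd6 mRNA, measured 57.2, 70.5 and 67.4 CPM (control 1, 2 and 3) against 43.1, 48.0 and 38.3 CPM (knockout 1, 2 and 3). All its knockout values were below all control values (log2 fold change -0.60, edgeR adjusted p = 0.0162, lost without control 2 at 0.0911, knockout 1 at 0.0658 and both shallow libraries at 0.117). Rexo2, which degrades short RNAs, fell by 0.56 on the log2 scale (adjusted p = 0.0169, lost without control 1, control 2 or knockout 1 at 0.0711, 0.0909 and 0.0577). Lrpprc, which stabilises mitochondrial mRNAs and was picked for that role after its value was seen, had a log2 fold change of 0.12 (adjusted p = 0.598). In this list 13 of the 19 genes had a negative log2 fold change, with a median of -0.08.

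None of 20 genes for rRNA modification and assembly of the mitochondrial ribosome was called by edgeR, DESeq2 or limma-voom, and 0, 1 and 2 had an unadjusted p under 0.05. The smallest p values were those of the methyltransferase-like gene Mettl17 (log2 fold change -0.43, edgeR adjusted p = 0.237) and the rRNA methyltransferase gene Nsun4 (-0.30, 0.353).

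Genes acting on tRNAs and translation gave single calls. Yrdc, for a tRNA base modification, fell by 0.57 (1 of 17 genes, edgeR adjusted p = 0.0320), lost without control 1, control 2, knockout 1 or knockout 3 (0.0923, 0.152, 0.0748 and 0.0690). Cars2, the synthetase that charges mt-Tc with cysteine, fell as 1 of 22 (15.3 ± 1.61 CPM in controls, 7.50 ± 1.44 in knockouts, log2 fold change -1.01, SE 0.189, adjusted p = 0.00753). Its call was lost only without both shallow libraries (0.115). Guf1, a translation factor gene, fell by 0.86 (1 of 14, adjusted p = 0.0296), lost when any library but knockout 3 was left out (0.0657 to 0.0902). Of 11 regulators of mitochondrial biogenesis 0 were called by edgeR, DESeq2 or limma-voom, with 1, 1 and 0 at an unadjusted p under 0.05. Among them the nuclear receptor gene Esrrg had a log2 fold change of 0.61 and the transcription factor gene Yy1 of 0.21 (edgeR adjusted p 0.166 and 0.335), and Esrrg was called higher without a filter on low counts (0.0482).

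Among 14 genes for protein import and mitochondrial membranes, only the chaperonin gene Hspe1 fell (93.4 ± 18.1 CPM in controls, 49.8 ± 4.17 in knockouts, edgeR adjusted p = 0.00306), a call absent only without both shallow libraries (0.118). Noncoding RNAs of the nucleus moved in the same libraries, with 6 of 10 lower and 1 higher, against 3.35% and 3.72% of all genes. Their summed level was 654 to 906 CPM in controls and 246 to 286 CPM in knockouts, without overlap. Neat1, Meg3 and Rian had the smallest p values, with log2 fold changes of -2.63, -3.92 and -1.46 (edgeR adjusted p 3.03e-06, 7.86e-06 and 4.47e-05). The part of nuclear RNA recovery in the mitochondrial rRNA values was not tested.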

How the data were processed

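Whole-islet RNA of 3 control and 3 knockout libraries was sequenced. The authors deposited a table of raw whole-number counts per Ensembl gene ID, for which the submitters' processing notes name STAR 2.7.3a, featureCounts, Trim Galore 0.6.7, FastQC 0.11.9 and the build GRCm39 (mm39). Not given in the sources used here are the annotation release, the strand setting and how read pairs, overlapping genes and reads with several alignments were treated. Even numbers made up 62.3% to 73.2% of the nonzero counts of each library, so mates may have been counted separately and a count may be less than a fragment. Columns name the group but no animal.

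Symbols matched 52073 of 56980 IDs, including all 37 members. The annotation at hand is of another build (GRCm38), so no coordinates are given. Nuclear copies were found with megablast among its transcripts (at least 90% identity over 100 bases). The test of all genes was edgeR 4.0.16 under R 4.3.3 (filterByExpr, TMM, robust quasi-likelihood, Benjamini-Hochberg over all genes tested), a test also run on simulated data. CPM use TMM-scaled totals. Shares and ratios used two-sided exact permutation tests over libraries. Alternatives were other scalings and filters, DESeq2 1.42.0, limma-voom (limma 3.58.1), halved counts, an acinar covariate, left-out libraries, and per-library offsets from splines of log2 CPM on longest-transcript length and GC content. Named genes are all members, nuclear copies above the filter, up to 3 called genes of at least 5 CPM with the smallest p per list (the 2 smallest p where none was called), and the 2 smallest p per complex of nuclear partners. Members and lists were chosen with earlier results of these data known.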

Additional observations from a re-analysis of the deposited data

How the results depend on the processing

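The called members numbered 1 lower and 1 higher with length and GC offsets and 0 without both shallow libraries, and 0 to 3 were lower with single libraries left out. With those offsets the median of the mRNAs was 0.082, and log2 fold changes turned positive for mt-Atp6 (0.31), mt-Co3 (0.16), mt-Nd3 (0.082), mt-Nd4l (0.20), mt-Nd5 (0.19), mt-Nd6 (0.25) and mt-Tp (0.017). The cause was not tested. With single libraries left out, log2 fold changes that turned sign ran from -0.055 to 0.24 for mt-Atp8, -0.19 to 0.056 for mt-Atp6, -0.20 to 0.027 for mt-Co3, -0.21 to 0.13 for mt-Nd4l and -0.18 to 0.10 for mt-Nd5. The mRNA share difference then ran from -0.371 to 0.00333 percentage points and the mt-Nd6 ratio from -0.089 to 0.061. The shares that did not overlap numbered 6 to 10, and 10 without both shallow libraries. Groups separate more easily when they hold fewer libraries. The machinery genes called lower numbered 0 without both shallow libraries and 1 to 5 with single libraries left out. Called higher were 3 without a filter, 2 with DESeq2, 1 with limma-voom, 2 with length and GC offsets and 1 with the acinar covariate. Nuclear partners called lower numbered 1 without both shallow libraries and 9 to 34 with single libraries left out. Over all genes, 691 were called higher and 621 lower. DESeq2 gave 1107 and 987, no filter 1222 higher, the acinar covariate 1037 higher, leaving out both shallow libraries 76 and 48, and leaving out single libraries 295 to 719 and 224 to 590. Upper-quartile scaling gave 613 higher and 829 lower. The cause of these differences was not tested, and the fits with left-out libraries also rest on fewer libraries. No paired analysis was possible because the columns carry no numbers that link them to animals. Neither mt-Tn nor mt-Tc was called, and what difference could be detected at their counts was not estimated.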
